A study of Danio rerio with 18 samples.

Results

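Fins of zebrafish exposed to TCDD were compared with fins of vehicle fish 3 days post amputation (dpa), on 6 of the study's 18 arrays. The 6 arrays were chosen by their labels alone: 3 labelled TCDD and 3 labelled vehicle at that day. The fish of the TCDD group were adult males of the AB strain that received 50 ng of TCDD (2,3,7,8-tetrachlorodibenzo-p-dioxin) per g of body weight in phosphatidylcholine liposomes. Those of the vehicle group were adult males of the same strain that received the liposomes without TCDD. Both groups had the caudal fin cut where its rays branch, were injected on the day of the cut, and gave their new fin tissue 3 days later together with a short stretch of the stump. Each array holds RNA of 10 pooled fish and carries a letter, A, B or C, that occurs once in each group, so that the errors below describe the spread between pools and not between fish. The comparison addresses which transcripts of the regenerating fin differ between exposed and unexposed fish once outgrowth is under way.

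TCDD binds the aryl hydrocarbon receptor (AHR), a transcription factor that pairs with ARNT and switches on detoxifying enzymes, above all those of the cytochrome P450 family 1. In the zebrafish the receptor that mediates most responses to TCDD is Ahr2, and exposure is known to block fin regrowth. A cut fin first closes with a wound epidermis. A blastema of proliferating mesenchyme then forms beneath it, and osteoblasts, fibroblasts and the fibre-forming cells of the fin margin rebuild the rays behind the moving tip, where they secrete collagen, proteoglycans and hyaluronan.

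Levels are given as log2(intensity + 1), and a difference is always the TCDD mean minus the vehicle mean on that scale with its standard error (SE). The SE of a gene rests on the spread within all 6 groups of the 18 arrays, moderated across probe sets, and is the same at every day. The median intensity ran from 75.6 to 84.1 over the 6 arrays, and the correlations between them over all probe sets from 0.969 to 0.991. The log2 gap between the 3' and 5' probe sets of GAPDH, a sign of RNA quality, was 1.74, 2.05 and 4.06 on TCDD arrays A, B and C, against 1.85, 2.24 and 3.38 on vehicle arrays A, B and C, so that letter C was highest in both groups. The tissue label fitted its markers: the basal keratin gene krt5 averaged 14.28 in TCDD and 14.29 in vehicle fins and the type I collagen gene col1a1a 13.57 in TCDD and 14.04 in vehicle fins. Lists of skeletal muscle genes (24 measured) and of liver and plasma genes (20 measured) had array means of 4.12 to 4.26 and 4.29 to 4.36 in TCDD fins, against 4.04 to 4.30 and 4.29 to 4.38 in vehicle fins, all below the median level of every array (6.26 to 6.41).

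Of 15502 probe sets, 172 differed between TCDD and vehicle fins (1.11%, limma, adjusted p under 0.05), 59 of them higher with TCDD (0.381%) and 113 lower (0.729%). Counted by gene, with 1 probe set for each, 126 of 8793 passed (1.43%), 44 higher (0.5%) and 82 lower (0.933%). In all 172 the 3 TCDD arrays lay on one side of the 3 vehicle arrays, which by itself makes each letter pair move the same way. Of all genes, with 1 probe set for each, 19.7% had groups that did not overlap. Among the 172, 15 of the higher and 23 of the lower probe sets differed at least 4-fold, and the median fold was 2.61 for the higher and 2.13 for the lower ones. When the fit was blocked by letter over all days, 489 passed (3.15%), 199 higher (1.28%) and 290 lower (1.87%), among them all 172. This fit, called the fit blocked by letter or the block below, gives each letter the same effect at every day. The labels do not say that a letter means the same on different days. Same-letter arrays were compared at 3 dpa only. Genes that pass below only with this block rest on that untested assumption. By gene the blocked fit gave 3.71%, with 1.46% higher and 2.25% lower. With the letter blocked within 3 dpa alone, 283 passed, among them 118 of the 172. The count depended on which array was left out: it was 75, 144 or 82 without TCDD array A, B or C, 72, 158 or 82 without vehicle array A, B or C, and 36 without both arrays of letter C. The plot of difference against level shows where the named genes stand.

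**Figure D1:**
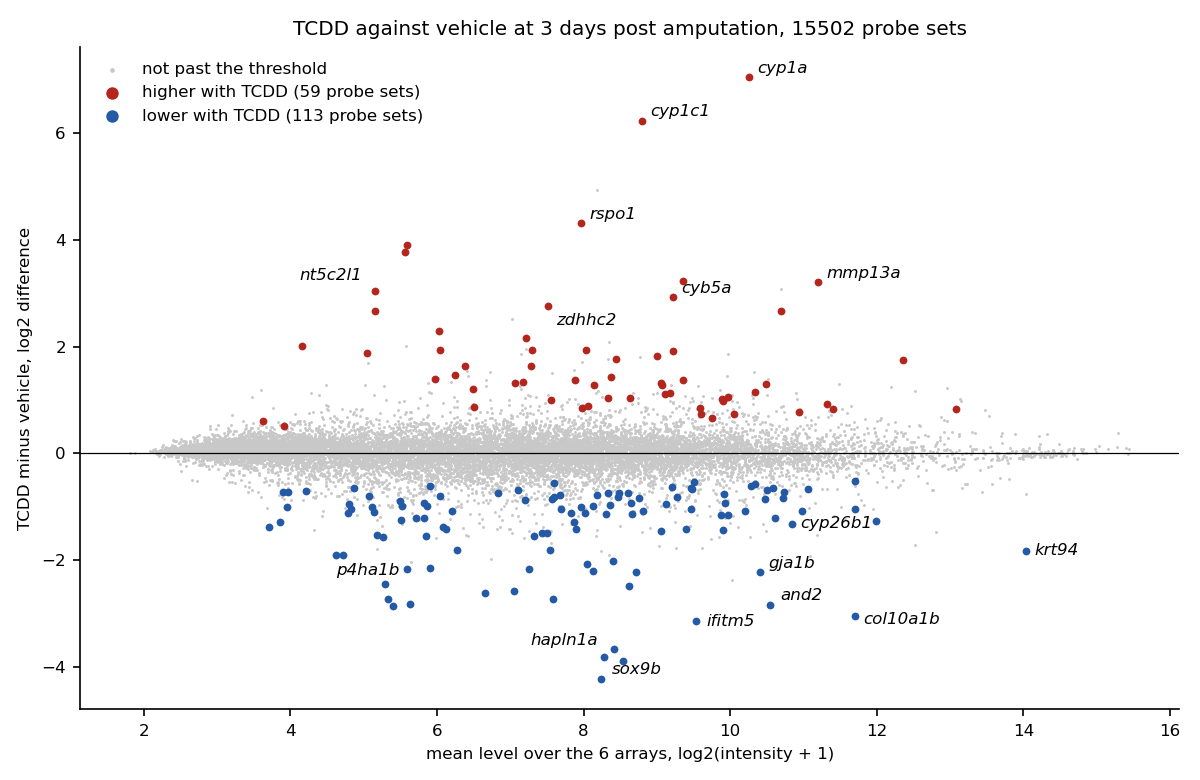
Difference between TCDD and vehicle fins (TCDD minus vehicle, log2) against the mean level over the 6 arrays at 3 dpa, 1 point per probe set. Red points are the 59 probe sets higher and blue points the 113 lower with TCDD at an adjusted p under 0.05, and cyp1a and cyp1c1 lie farthest above 0.

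The genes that rose most were the AHR-responsive cytochrome P450 genes. cyp1a, the enzyme most used as a marker of AHR activity, had levels of 13.90, 13.47 and 14 on TCDD arrays A, B and C, against 7.78, 8.03 and 4.39 on the vehicle arrays of the same letters. The exposed arrays were close together, while vehicle array C lay far below the other two. cyp1a rose by 7.06 ± 1.16 (133-fold, adjusted p = 0.00697), with differences within the letter pairs of 6.12, 5.45 and 9.61. Its fold was 59.1 without vehicle array C, 209 without vehicle array B and 191 without vehicle array A, and its call was lost without both arrays of letter C (adjusted p = 0.122).

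cyp1c1, another monooxygenase of family 1, was likewise lowest on vehicle array C. It had 12.17, 11.97 and 11.62 in TCDD fins, against 6.70, 6.72 and 3.60 in vehicle fins, a rise of 6.24 ± 0.86 (75.7-fold, adjusted p = 0.00178) that was 36.9-fold without vehicle array C. A second probe set of cyp1c1 had 9.11, 8.33 and 4.92 in TCDD fins, against 3.59, 3.88 and 3.55 in vehicle fins (3.78 ± 0.85, adjusted p = 0.0448). Its TCDD array C lay near the vehicle level, and this second call was lost without TCDD array A or B or any 1 of the 3 vehicle arrays (adjusted p at most 0.198). Another probe set of cyp1c1, dim in both groups, differed by 0.29 and did not pass (limma, adjusted p = 0.456).

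Of the 11 measured genes of the AHR list, cyp1a and cyp1c1 rose and none fell, against 0.5% and 0.933% of all genes. tiparp, the AHR-induced ADP-ribosyltransferase that represses the receptor, differed by 1.07 (adjusted p = 0.0692) and passed in the fit blocked by letter (adjusted p = 0.0243). nqo1, a quinone reductase shared by the AHR and the antioxidant response, differed by 0.78 (adjusted p = 0.387) and ahr2 itself by 0.48 (adjusted p = 0.155). The other 6 members, the partner gene arnt2, the receptor gene ahr1a, cyp1d1 and the chaperone genes hsp90ab1, ptges3a and ptges3b, lay between -0.21 and 0.14. The list median was 0.14, against 0.04 over all genes.

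**Figure D2:**
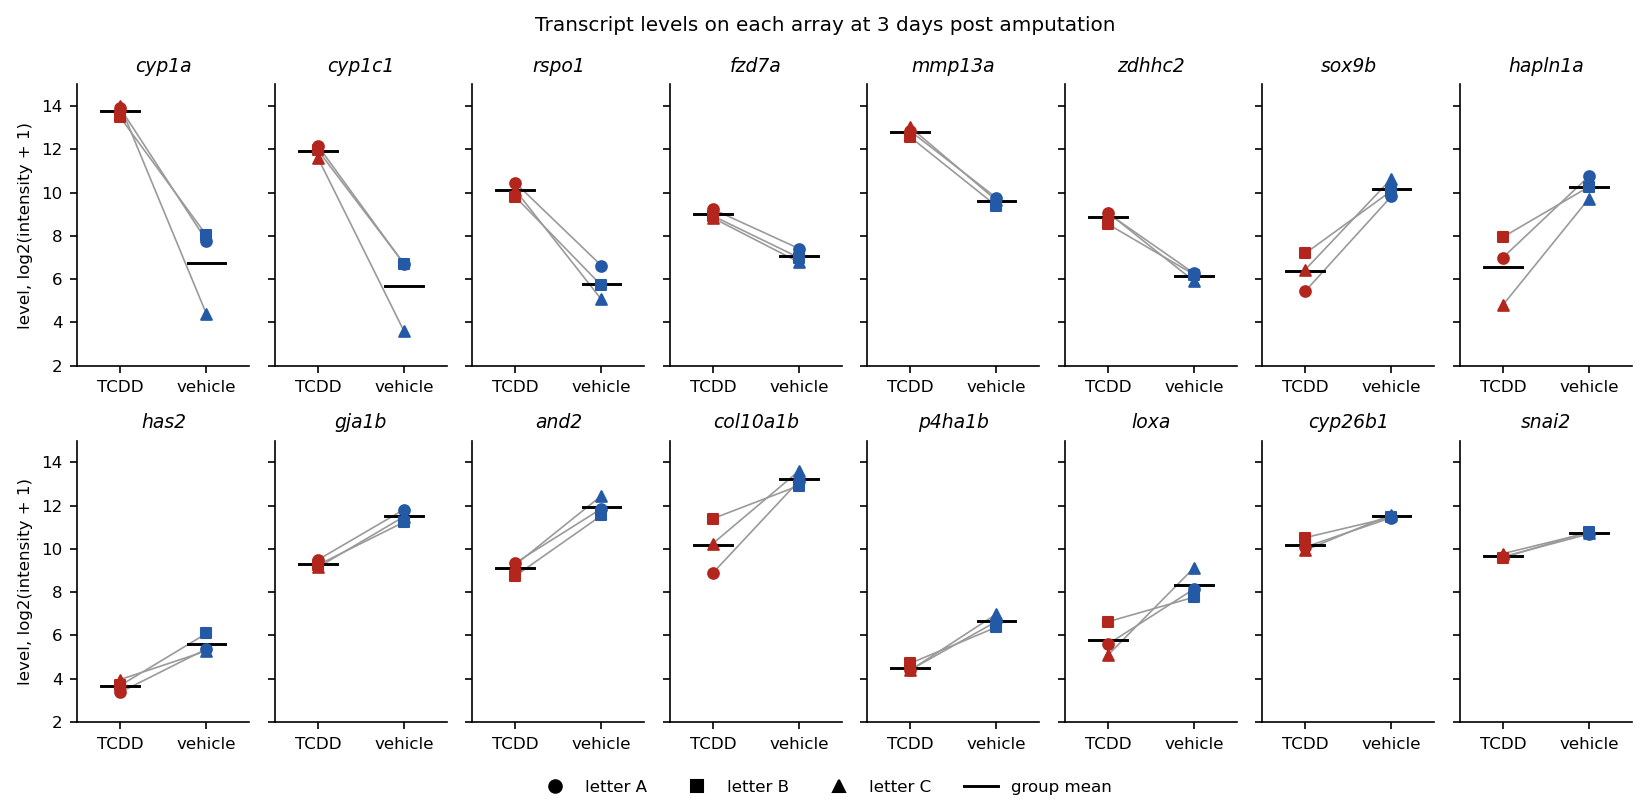
Level of 16 genes on each array at 3 dpa, log2(intensity + 1), with TCDD arrays left and vehicle arrays right in each panel. Point shapes mark the letters A, B and C, grey lines join arrays of the same letter and black bars are group means, and the groups overlap in none of the panels.

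Among 47 other enzymes of xenobiotic metabolism 2 rose and none fell, against 0.5% and 0.933% of all genes. cyb5a, the electron donor cytochrome b5, had 11.43, 9.64 and 10.99 in TCDD fins, against 7.59, 7.98 and 7.67 in vehicle fins, a rise of 2.94 ± 0.45 (7.66-fold, adjusted p = 0.00422). TCDD array B was the lowest of the exposed arrays and still above every vehicle array. The cyb5a call was lost when only the 3 dpa arrays were fitted, and without both arrays of letter C. sult6b1, a sulfotransferase, rose by 1.30 ± 0.28 (adjusted p = 0.0373), a call lost without TCDD array A or C or vehicle array B or C (adjusted p at most 0.176).

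Of 32 antioxidant genes measured, 3 rose and none fell, against 0.5% and 0.933% of all genes, with a list median of 0.07. gpx1b, a glutathione peroxidase, had 7.92, 7.24 and 8.0 in TCDD fins, against 6.55, 6.43 and 6.22 in vehicle fins (1.32 ± 0.18, adjusted p = 0.00178). The transcription factor gene nfe2l2a rose by 1.06 ± 0.21 (limma, adjusted p = 0.02) and the glutathione transferase gene gstp1.2 by 0.84 ± 0.15 (adjusted p = 0.0147). Both of these lost the call without TCDD array C or vehicle array A or C, nfe2l2a also without TCDD array A (adjusted p at most 0.108 and 0.0797), and a second, dimmer probe set of nfe2l2a differed by 0.10. In the fit blocked by letter 4 rose and 1 fell, against 1.46% and 2.25% of all genes. There gsto2 joined the rises and gstm.1 was the fall.

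Several further genes of other functions rose. zdhhc2, a palmitoyltransferase, had 9.05, 8.55 and 9.08 in TCDD fins, against 6.27, 6.21 and 5.91 in vehicle fins (2.76 ± 0.25, 6.76-fold), and had the lowest adjusted p among the named genes (7.73e-05). nt5c2l1, of the 5'-nucleotidase family, rose by 3.05 ± 0.40 (adjusted p = 0.00126). gchfr, the feedback regulator of GTP cyclohydrolase, had 9.97, 9.70 and 10.10 in TCDD fins, against 8.26, 7.80 and 8.20 in vehicle fins (1.84 ± 0.26, adjusted p = 0.00225). dchs1b, a large cadherin of tissue polarity, rose by 1.77 ± 0.25 (adjusted p = 0.00183). These 4 calls held with each of the 6 arrays left out. That of gchfr was lost without both arrays of letter C, and that of dchs1b when only the 3 dpa arrays were fitted.

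A probe set annotated as mpx, the neutrophil peroxidase, had 7.87, 7.67 and 7.10 in TCDD fins, against 3.64, 3.91 and 3.37 in vehicle fins (3.91 ± 0.37, adjusted p = 8.3e-05). Its ID carries the same cluster number as that of the cyp1a probe set, and so do the IDs of the other 3 probe sets annotated as mpx. These 3 differed by -0.08 to 0.15 and none passed, so that the rise is given for the probe set and not for the gene.

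Of the 40 measured genes of the Wnt list 2 rose and 1 fell, against 0.5% and 0.933% of all genes. dixdc1a, a Wnt pathway gene outside the list that was picked after its values were seen, also fell (-1.2, limma, adjusted p = 0.0011). rspo1 encodes a secreted R-spondin that amplifies Wnt signalling. Its levels were 10.45, 9.81 and 10.12 in TCDD fins, against 6.62, 5.71 and 5.06 in vehicle fins, a rise of 4.33 ± 0.49 (20.1-fold, adjusted p = 0.000351) that was 3.83, 4.10 and 5.06 within the letter pairs. The receptor gene fzd7a had 9.23, 8.93 and 8.83 in TCDD fins, against 7.41, 7.0 and 6.78 in vehicle fins (1.93 ± 0.33, 3.82-fold, adjusted p = 0.01). In both genes every TCDD array lay above every vehicle array by more than the spread within either group.

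tcf7l1b, a transcription factor that represses Wnt targets, fell by 0.97 ± 0.16 (adjusted p = 0.00838). The call for fzd7a was lost without TCDD array A or vehicle array C (adjusted p at most 0.0559) and that for tcf7l1b without vehicle array A (adjusted p = 0.0513). Genes that report Wnt activity did not pass: axin2 differed by -0.24 (adjusted p = 0.788), lef1 by 0.05 (adjusted p = 0.961) and the inhibitor gene dkk1b by 0.21 (adjusted p = 0.863). In the fit blocked by letter 3 rose and 2 fell, against 1.46% and 2.25% of all genes. ctnnb2, a beta-catenin gene, joined the rises (0.59, limma, adjusted p = 0.006) and dact2, a modulator of the pathway, the falls (-1.5, adjusted p = 0.004). The list median was 0.01.

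Among 25 Fgf pathway genes 1 rose, against 0.5% of all genes. This was il17rd, the membrane inhibitor of Fgf signalling also known as Sef. Its levels were 9.81, 9.39 and 9.96 in TCDD fins, against 8.61, 8.0 and 8.70 in vehicle fins (1.28 ± 0.26, adjusted p = 0.0267), a call lost without TCDD array A or C or vehicle array A or B (adjusted p at most 0.129). In the fit blocked by letter the count was 4, against 1.46% of all genes. The block added the ligand gene fgf24 (1.14, limma, adjusted p = 0.00547), the feedback inhibitor gene spry4 (1.1, adjusted p = 0.0303) and the Fgf target etv4 (0.99, adjusted p = 0.00415). dusp6, another Fgf target, differed by 0.33 (adjusted p = 0.611) and passed in neither fit.

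None of 50 Bmp and Tgf-beta genes passed. An unadjusted p under 0.05 (limma) was reached by 7 of them, against 1044 of all 8793 genes. With the block 3 rose, against 1.46% of all genes. They were bambia, a pseudoreceptor that damps Bmp signals (1.09, limma, adjusted p = 0.0237), the ligand gene bmp2a (1.08, adjusted p = 0.0103) and tsc22d3 (0.48, adjusted p = 0.0492). None of 14 Hedgehog genes passed with limma in either fit, and 0 reached an unadjusted p under 0.05. shha, the main Hedgehog ligand gene of the fin, averaged 6.33 in TCDD and 6.25 in vehicle fins. None of 28 Notch genes passed, and 1 did with the block, a share near the 3.71% of all genes that passed in that fit.

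Of 31 bone and cartilage genes 4 fell and none rose (0.933% of all genes fell). In tissue pools fewer cells of a type and less RNA per cell cannot be told apart, here and in the results that follow. sox9b, a skeletal transcription factor of cartilage and of osteoblast precursors, had 5.45, 7.19 and 6.45 in TCDD fins, against 9.83, 10.08 and 10.65 in vehicle fins, a fall of 3.82 ± 0.55 (14.2-fold, adjusted p = 0.00226). The highest TCDD array lay more than 2 log2 units under the lowest vehicle array. The sox9b call held with each array left out and was lost without both arrays of letter C. gja1b encodes connexin 43, the gap junction protein that sets the length of fin ray segments. It had 9.49, 9.26 and 9.15 in TCDD fins, against 11.82, 11.24 and 11.49 in vehicle fins, a fall of 2.22 ± 0.22 (4.65-fold, adjusted p = 0.000104) that was 2.32, 1.98 and 2.34 within the letter pairs.

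ifitm5, a membrane protein of mature osteoblasts, had 7.37, 8.61 and 7.91 in TCDD fins, against 11.26, 10.82 and 11.26 in vehicle fins (-3.15 ± 0.60, adjusted p = 0.0185). runx2a, an osteoblast transcription factor, fell by 1.07 ± 0.24 (adjusted p = 0.044), although within letter B the difference was -0.31. A second, dimmer probe set of runx2a differed by 0.20 and did not pass. The calls for ifitm5 and runx2a were lost without 4 and 5 of the 6 arrays, ifitm5's without array A or C of either group and runx2a's without any TCDD array or vehicle array A or C (adjusted p at most 0.0925 and 0.171). A probe set of sox9a, the paralogue of sox9b, was dim in both groups (2.82 in TCDD and 2.70 in vehicle fins), as was sp7, the osterix gene (4.12 in TCDD and 3.99 in vehicle fins). The median of the list was 0.01, so that the falls were those of a few members. spp1, the osteopontin gene, differed by -0.19 (adjusted p = 0.936) and alpl, the bone phosphatase gene, by 0.17 (adjusted p = 0.74).

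Genes of the hyaluronan and chondroitin matrix fell in 5 of 12 cases and rose in none, against 0.933% and 0.5% of all genes. The 5 cover synthesis, linkage and core proteins. has2, the hyaluronan synthase, had 3.37, 3.69 and 3.96 in TCDD fins, against 5.37, 6.09 and 5.28 in vehicle fins (-1.91 ± 0.31, adjusted p = 0.00603). Its TCDD levels were dim, and all 6 values lay below the median of the arrays. ugdh, which makes the glucuronic acid precursor of these sugars, fell by 0.69 ± 0.15 (adjusted p = 0.0373).

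hapln1a, the link protein that ties hyaluronan to proteoglycans, was measured by 5 probe sets that passed, with falls of 1.03 to 4.23. A further, dim probe set of it differed by -0.23 and did not pass (limma, adjusted p = 0.536). The brightest of the 5 over all arrays had 6.99, 7.94 and 4.80 in TCDD fins, against 10.76, 10.27 and 9.73 in vehicle fins (-3.67 ± 0.68, adjusted p = 0.0167). That call was lost without TCDD array C or vehicle array A (adjusted p at most 0.0794), and its fall was 20.4-fold without TCDD array B and 6.88-fold without TCDD array C. Another of the 5 had 5.93, 6.93 and 5.49 in TCDD fins, against 10.03, 10.58 and 10.44 in vehicle fins, and passed with each array left out (adjusted p at most 0.0034).

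The core protein genes followed. ncana, the neurocan gene, had 4.04, 3.48 and 4.37 in TCDD fins, against 7.12, 5.59 and 7.38 in vehicle fins (-2.73 ± 0.52, adjusted p = 0.019). vcanb, of the versican family, fell by 1.81 ± 0.41 (adjusted p = 0.0463). Without most single arrays the calls for ncana, vcanb and ugdh were lost: ncana's without TCDD array A or B or vehicle array A or C, the other two without any 1 of the 6 (adjusted p at most 0.0948, 0.176 and 0.171). The remaining 7 members, among them the hyaluronan receptor gene cd44a (0.17, adjusted p = 0.821) and has3 (0.34, adjusted p = 0.252), did not pass. Without both arrays of letter C, 1 of the 12 passed (has2).

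Enzymes and chaperones that process collagen were the list with the lowest median. Of 16 measured, 8 fell and none rose, against 0.933% and 0.5% of all genes. The median difference was -1.06, against 0.04 over all genes. p4ha1b, a catalytic subunit of prolyl 4-hydroxylase, had 4.41, 4.71 and 4.39 in TCDD fins, against 6.64, 6.38 and 6.99 in vehicle fins (-2.17 ± 0.28, 4.49-fold, adjusted p = 0.0011). loxa, a lysyl oxidase that crosslinks collagen, had 5.59, 6.63 and 5.09 in TCDD fins, against 8.14, 7.77 and 9.12 in vehicle fins (-2.58 ± 0.48, adjusted p = 0.0168). In both, the groups were apart on every array, with the smallest gap within letter B.

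The other 6 falls were smaller. plod1a, a lysyl hydroxylase, fell by 1.43 ± 0.28 and p4ha2, a paralogue of p4ha1b, by 1.12 ± 0.24. fkbp14, a prolyl isomerase of the endoplasmic reticulum, had 8.39, 8.42 and 8.17 in TCDD fins, against 9.64, 10.00 and 9.72 in vehicle fins (-1.46 ± 0.28). pcolce2b, an enhancer of procollagen cleavage, fell by 1.5 ± 0.34, and crtap and p3h4, of the prolyl 3-hydroxylase complexes, by 0.69 ± 0.14 and 0.67 ± 0.15. These 6 had adjusted p of 0.0191 to 0.0453.

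In the fit blocked by letter 12 of the 16 fell, against 2.25% of all genes. The block added the collagen chaperone gene serpinh1b (-1.91, limma, adjusted p = 0.0465), fkbp9, fkbp10b and plod3. Of the 8 calls only p4ha1b's held with each array left out (adjusted p at most 0.179 for the others), the lowest counts being 1 without TCDD array A, vehicle array A or vehicle array C, and 1 without both arrays of letter C. The other three single arrays left 2 to 4.

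Collagen chains themselves gave 1 call in 21, where 1.43% of all genes were called. col10a1b, a type X collagen of fin osteoblasts, had 8.89, 11.40 and 10.25 in TCDD fins, against 13.14, 12.92 and 13.60 in vehicle fins (-3.05 ± 0.68, 8.26-fold, adjusted p = 0.0435). Its TCDD arrays spread over more than 2 log2 units, and the call was lost without any 1 of 5 arrays, all but TCDD array B (adjusted p at most 0.188). Leaving out TCDD array A gave 5.28-fold and leaving out TCDD array B 12.6-fold. With the block 4 fell, against 2.25% of all genes. It added col10a1a (-1.71, limma, adjusted p = 0.0293), col15a1a (-1.03, adjusted p = 0.0127) and col5a2a (-0.63, adjusted p = 0.0364). The abundant fibrillar genes col1a1a and col1a2 differed by -0.47 and -0.57 (adjusted p = 0.396 and 0.252) by their brightest probe sets, which passed in neither fit. A dimmer probe set of col1a1a and one of col1a2 fell with the block. A second, dimmer probe set of col5a2a passed in the main fit (-0.95 ± 0.21, adjusted p = 0.0405).

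and2 encodes an actinodin, a protein of the actinotrichia, the fibres that stiffen the fin margin. It had 9.35, 8.75 and 9.26 in TCDD fins, against 11.86, 11.54 and 12.46 in vehicle fins, a fall of 2.83 ± 0.37 (7.12-fold, adjusted p = 0.0011) of 2.51, 2.79 and 3.20 within the letter pairs. The other 2 measured actinodins did not pass: and1 differed by -0.69 (adjusted p = 0.675) and and3 by 0.73 (adjusted p = 0.566). None of 5 small leucine-rich proteoglycans passed, and aspn, asporin, fell with the block (-0.96, adjusted p = 0.00717). None of 24 other matrix glycoproteins passed either. With the block sparc, postnb and thbs3a fell and ccn2b rose, against 2.25% and 1.46% of all genes.

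Among 20 metalloproteinases, cathepsins and inhibitors, mmp13a alone passed and it rose, where 0.5% of all genes rose. This collagenase had 12.84, 12.57 and 13.02 in TCDD fins, against 9.76, 9.38 and 9.64 in vehicle fins, a rise of 3.22 ± 0.46 (9.30-fold, adjusted p = 0.00226) of 3.09, 3.18 and 3.38 within the letter pairs. The call held with each array left out and was lost without both arrays of letter C (adjusted p = 0.0592). mmp9, a gelatinase, differed by 0.41 (adjusted p = 0.808), mmp14a by -0.05 and mmp2 by -0.45 (adjusted p = 0.944 and 0.227). With the block mmp13a and ctsla rose, where 1.46% of all genes rose, and a dimmer probe set of mmp2 fell.

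**Figure D3:**
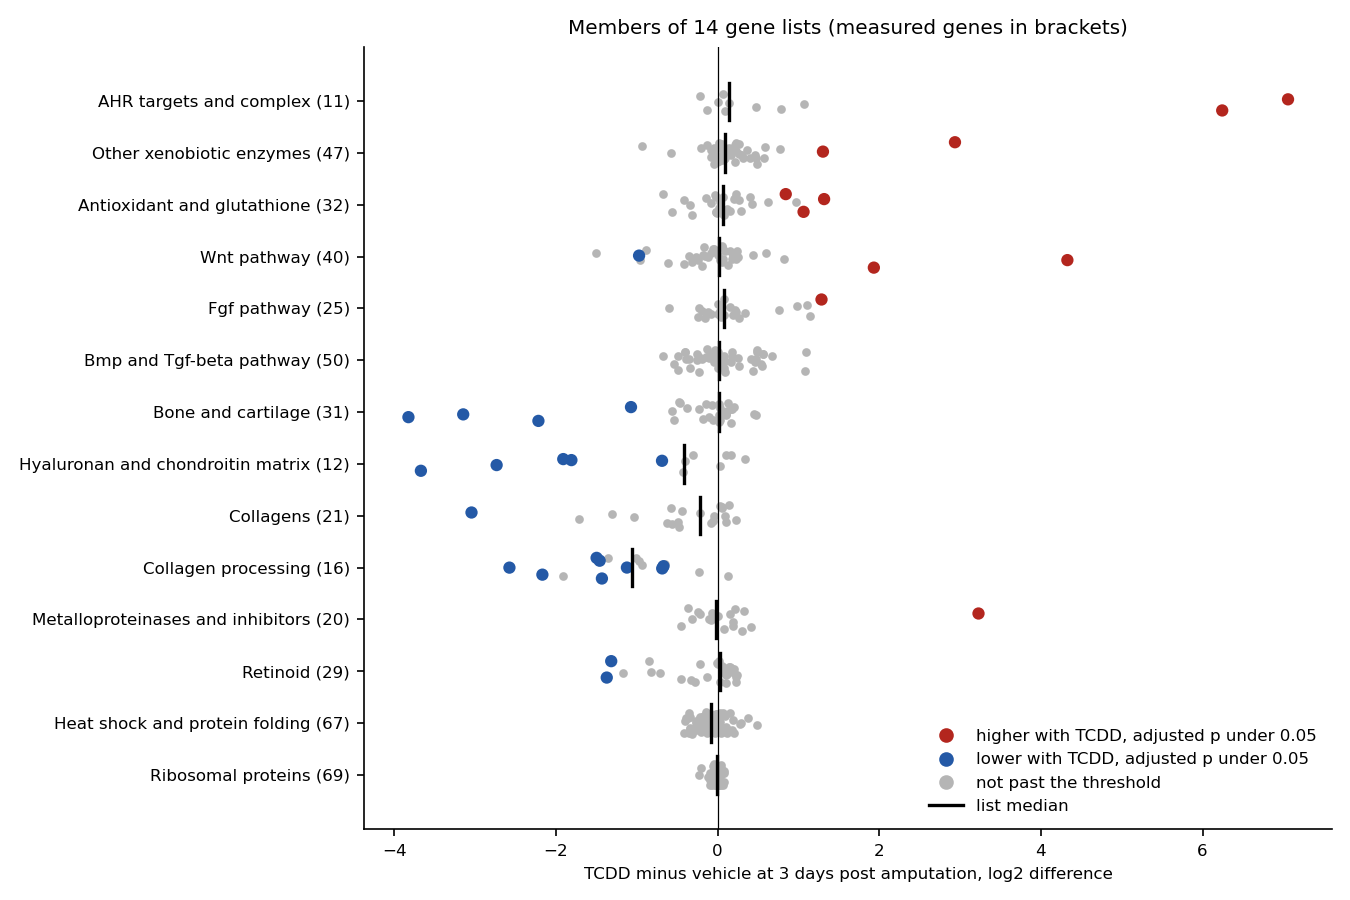
Difference between TCDD and vehicle fins at 3 dpa (TCDD minus vehicle, log2) for the measured members of 14 gene lists, 1 point per gene. Red and blue points passed at an adjusted p under 0.05, black bars are list medians, and collagen processing has the lowest median at -1.06 while ribosomal proteins lie close to 0.

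Genes of the secretory route were gathered into a list after their values were seen, so that its count describes these arrays and supports nothing further. Of 67 such genes, 12 fell and none rose, with a median of -0.27. lman1, a cargo receptor between endoplasmic reticulum (ER) and Golgi, had 8.93, 9.08 and 8.83 in TCDD fins, against 9.86, 9.97 and 10.16 in vehicle fins (-1.05 ± 0.12, adjusted p = 0.000351). tram1, of the translocation channel, had 9.51, 9.52 and 9.59 in TCDD fins, against 10.25, 10.31 and 10.34 in vehicle fins (-0.76 ± 0.12, adjusted p = 0.00517). In both the groups were apart by more than the range within either group.

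rrbp1a, the ribosome binding protein of the ER, fell by 0.84 ± 0.13 and hm13, the signal peptide peptidase, by 0.58 ± 0.10. lman1, tram1, rrbp1a and hm13 kept the call with each array left out. kdelr3, golt1bb, sec23a, yif1a, serp1, txndc5, asph and cercam fell by 0.51 to 0.94 and lost it without 3 to 6 of the 6 arrays (adjusted p at most 0.179). The list count was 4 to 7 over the arrays left out in turn, 1 without both arrays of letter C and 23 in the fit blocked by letter. kdelr2b, a retention receptor of the same family as kdelr3, stood just outside the threshold (-0.46, adjusted p = 0.0507), and 5 further probe sets of txndc5 differed by -0.60 to 0.02 without passing. None of the 67 genes of the heat shock and protein folding list passed, and their median was -0.08. An unadjusted p under 0.05 (limma) was reached by 4 of them, against 1044 of all 8793 genes. hspb8, a small heat shock protein gene outside that list, picked after its values were seen, fell by 1.56 ± 0.21 (adjusted p = 0.0016).

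A pair of zinc finger repressors of the snail family, which drive mesenchymal change in embryos, fell with little spread, and this pair was likewise singled out after its values were seen. snai2 had 9.63, 9.59 and 9.78 in TCDD fins, against 10.69, 10.79 and 10.75 in vehicle fins (-1.08 ± 0.11, adjusted p = 0.000229). snai1a had 8.51, 8.70 and 8.74 in TCDD fins, against 9.44, 9.69 and 9.64 in vehicle fins (-0.94 ± 0.13, adjusted p = 0.00225). Both passed with each array left out and without both arrays of letter C. The related genes twist1a and twist3 differed by -0.57 and -0.54 (adjusted p = 0.618 and 0.715), and 2 dimmer probe sets of snai2 by -1.0 and -0.57, also without passing. Of the 6 snail and twist genes measured, 5 were lower with TCDD and 1 was higher, by 0.24, and 4 did not pass.

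Of 29 retinoid genes 2 fell and none rose, against 0.933% and 0.5% of all genes. cyp26b1, which degrades retinoic acid, had 10.09, 10.52 and 9.94 in TCDD fins, against 11.45, 11.46 and 11.59 in vehicle fins (-1.32 ± 0.15, adjusted p = 0.00037), and 2 further probe sets of it fell by 1.2 and 0.99. Another, dimmer probe set of cyp26b1 differed by -1.24 and did not pass (limma, adjusted p = 0.0916). stra6, a retinol transporter, had 2.86, 3.13 and 3.07 in TCDD fins, against 3.80, 4.90 and 4.49 in vehicle fins (-1.37 ± 0.23, adjusted p = 0.00838), all of them dim. Both calls held with each array left out, and that of stra6 was lost without both arrays of letter C (adjusted p = 0.116). With the block 4 fell, against 2.25% of all genes. It added crabp2b, a retinoic acid carrier (-0.83, limma, adjusted p = 0.0137), and the receptor gene rxrga (-0.71, adjusted p = 0.0315). aldh1a2, which makes retinoic acid, differed by 0.14 (adjusted p = 0.912).

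Among 40 blastema and homeobox genes 1 fell, against 0.933% of all genes. This was tph1b, a tryptophan hydroxylase. It had 6.58, 5.74 and 6.34 in TCDD fins, against 9.61, 8.88 and 8.34 in vehicle fins (-2.72 ± 0.61, adjusted p = 0.0438), and the call was lost without any 1 of the 6 arrays (adjusted p at most 0.202). msx1b, a blastema homeobox gene, differed by -0.85 and fell with the block (adjusted p = 0.00795). None of 50 Hox and dlx genes passed, with 5 at an unadjusted p under 0.05 (limma), against 1044 of all 8793 genes. Of 63 cell cycle genes 1 fell, a share near the 0.933% of all genes that fell. It was cdkn1ca, an inhibitor of the cycle, which fell by 1.53 ± 0.30 (adjusted p = 0.0198). This call was lost without any 1 of 5 arrays, all but vehicle array B (adjusted p at most 0.094). The list median was 0.07.

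Markers of other cell types are set beside all genes, of which 1.43% passed in the main fit and 3.71% with the block. Of 28 myeloid genes the mpx probe set described above rose and c1qc, a complement gene of macrophages, fell by 1.14 ± 0.25 (adjusted p = 0.0373), a call lost without any 1 of 5 arrays, all but TCDD array C (adjusted p at most 0.17). The array means of this list were 8.42 to 8.68 in TCDD and 8.40 to 8.73 in vehicle fins. With the block 3 of its members rose (apoeb, ctss2.1 and the mpx probe set) and 3 fell (c1qc, ccl34b.1 and marco). Of 15 pigment cell genes gch2, an enzyme of pteridine synthesis, fell by 1.55 ± 0.31 (adjusted p = 0.0239), lost without array B or C of either group (adjusted p at most 0.111), while the melanocyte genes mitfa and dct differed by -0.01 and 0.62 and did not pass. A second, dimmer probe set of gch2 differed by -0.22 and did not pass. With the block 4 pigment genes fell, and the array means of this list were 6.13 to 6.32 in TCDD and 6.31 to 6.59 in vehicle fins.

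In the nerve and glia list (31 measured) sst1.1, a somatostatin gene, rose and fabp7a, a fatty acid binding protein of glia, fell. sst1.1 had 6.77, 6.39 and 8.36 in TCDD fins, against 5.18, 4.62 and 4.83 in vehicle fins (2.30 ± 0.43, 4.92-fold, adjusted p = 0.0166), with TCDD array C far above the others and a fold of 3.26 without it. fabp7a had 3.91, 4.46 and 4.27 in TCDD fins, against 6.72, 6.71 and 7.71 in vehicle fins (-2.83 ± 0.49, adjusted p = 0.0102). Calls were lost for sst1.1 without vehicle array B or C and for fabp7a without TCDD array A or vehicle array C (adjusted p at most 0.063 and 0.0576). The means of this list were 4.68 to 4.94 in TCDD and 4.71 to 4.96 in vehicle fins. With the block 1 of its members rose (sst1.1) and 3 fell (fabp7a, pmp22b and tubb5). None of 16 endothelial, 14 erythrocyte or 8 lymphocyte genes passed in either fit.

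Of the remaining named genes, calb2a, the calcium buffer calretinin, fell in every setting in which it was tested. It had 5.02, 4.75 and 4.72 in TCDD fins, against 7.04, 6.57 and 7.35 in vehicle fins (-2.15 ± 0.22, 4.45-fold, adjusted p = 0.000212). Its TCDD levels were dim, below the median of every array. ldha, lactate dehydrogenase and the 1 call among 29 glycolysis genes, had 8.34, 8.32 and 8.15 in TCDD fins, against 9.17, 9.62 and 9.28 in vehicle fins (-1.09 ± 0.16, adjusted p = 0.00226). krt94, the 1 call among 57 keratin and junction genes, had 12.79, 14.26 and 12.32 in TCDD fins, against 14.80, 15.04 and 15.01 in vehicle fins (-1.83 ± 0.37, adjusted p = 0.027). Its call was lost without any 1 of 5 arrays, all but TCDD array B (adjusted p at most 0.128). These single falls in lists of 29 and 57 genes stand beside 0.933% of all genes that fell.

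hsd17b8, of the hydroxysteroid dehydrogenase family, fell by 2.49 ± 0.43, hgd, an enzyme of tyrosine breakdown, by 2.08 ± 0.46, ice2 by 2.01 ± 0.40 and myca, a Myc gene, by 1.01 ± 0.21. apoc1, an apolipoprotein gene, rose by 1.93 ± 0.42, sox19b by 2.67 ± 0.55 and lrrc4.1 by 1.88 ± 0.35. Each of these 7 lost its call without 3 to 6 of the arrays (adjusted p at most 0.196), and a second probe set of hsd17b8 differed by 0.05. Of 41 lists in all, 19 had no call, among them 87 respiratory chain genes, 69 ribosomal protein genes and 15 Jak-Stat genes. The median differences of these 3 lists were 0.09, -0.01 and 0.21.

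The effect at 3 dpa was set beside those at 1 and 5 dpa, whose means rest on other arrays. The SE is shared by all days, so a probe set with a small SE is called more easily at every day. The overlaps in calls are therefore not independent of the choice at 3 dpa. Of the 59 higher probe sets, 16 were also called higher at 1 dpa (27.1%, and 64% of that day's 25) and 33 at 5 dpa (55.9%, and 27.7% of that day's 119). At those days 0.161% and 0.768% of all probe sets were called higher. Of the 113 lower ones, 7 were also called lower at 1 dpa (6.19%, and 53.8% of that day's 13) and 35 at 5 dpa (31%, and 25.7% of that day's 136), where 0.0839% and 0.877% of all probe sets were called lower (0.245% and 1.64% in either direction). None was called in the opposite direction at either day. The shared count at 5 dpa was 68; leaving out TCDD array A or C at 3 dpa gave 36 or 40, leaving out vehicle array A or C gave 36 or 39, and the blocked fit gave 185. That at 1 dpa was 23, and 14 or 15 without TCDD array A or vehicle array C.

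cyp1a, cyp1c1, rspo1, mmp13a, nt5c2l1, cyb5a, zdhhc2, fzd7a and dchs1b among the rises, and sox9b among the falls, passed at all 3 days. rspo1 differed by 3.18, 4.33 and 3.91 at 1, 3 and 5 dpa and sox9b by -3.23, -3.82 and -3.42. The median difference at 1, 3 and 5 dpa was 0.80, 1.38 and 1.1 over the 59 higher and -0.28, -1.09 and -0.64 over the 113 lower probe sets. These medians at 3 dpa follow from the choice of probe sets by their 3 dpa values.

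A test of the difference between the effects at 3 and 5 dpa passed for 1 probe set (0.00645%), with 1737 at an unadjusted p under 0.05. That between 3 and 1 dpa passed for 0 (limma, with 669 at an unadjusted p under 0.05, and 1 with a pseudocount of 16), and no named gene differed in its effect between days past the threshold. Leaving out TCDD array C gave 0 for the first count, leaving out vehicle array A, B or C gave 2, 3 or 3, and leaving out vehicle array B gave 4 for the second. Among the genes named here calb2a came closest. It differed by -0.21, -2.15 and -0.28 at 1, 3 and 5 dpa (adjusted p = 0.145 for 3 against 1 dpa and 0.111 for 3 against 5 dpa). has2 differed by -0.80, -1.91 and -0.00 and col10a1b by -0.79, -3.05 and -0.64 (adjusted p = 0.362 and 0.38 for 3 against 5 dpa).

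**Figure D4:**
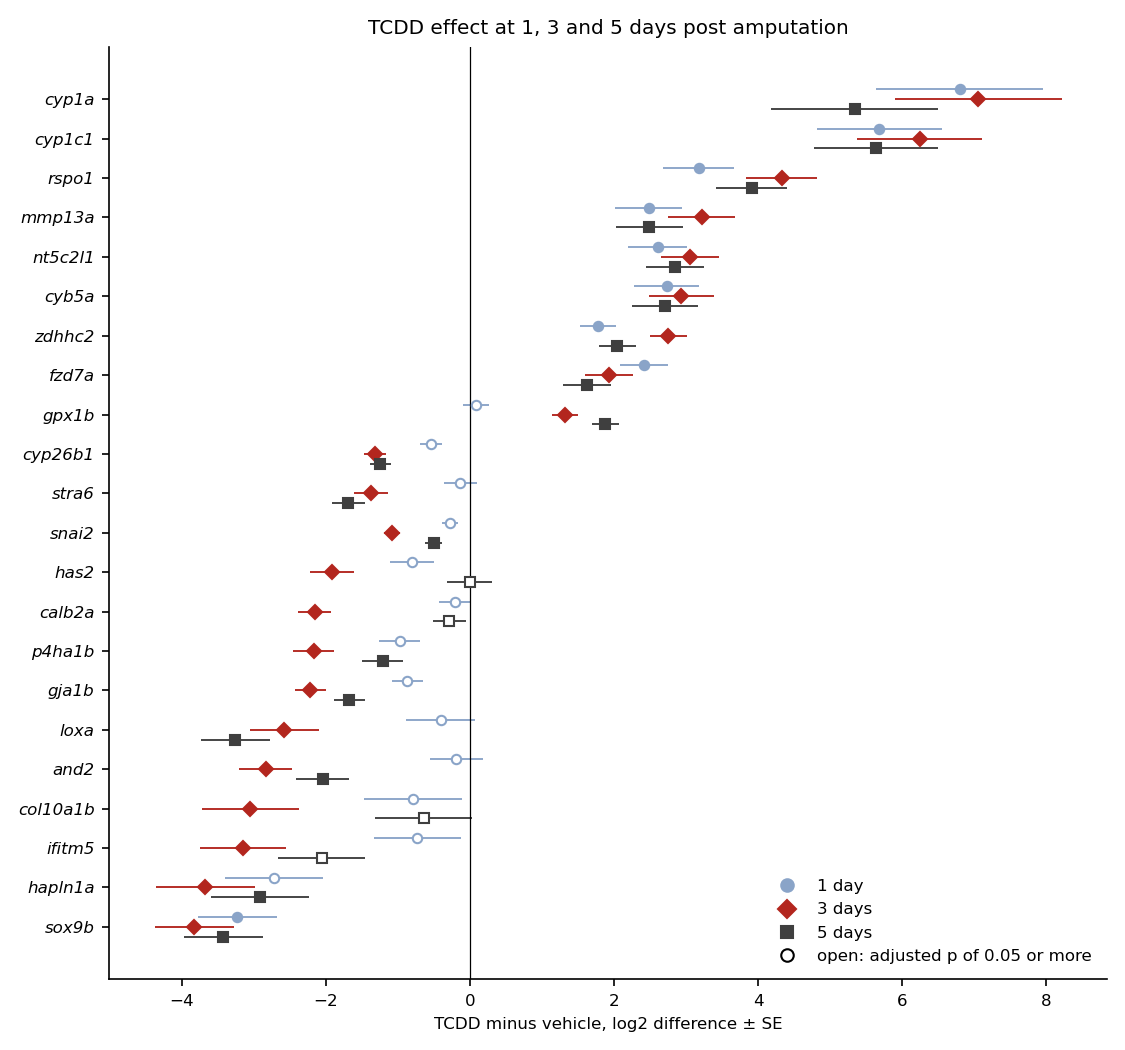
Difference between TCDD and vehicle fins (TCDD minus vehicle, log2, bars are SE) of 22 genes called at 3 dpa, at 1, 3 and 5 dpa. Filled points passed at an adjusted p under 0.05; cyp1a, rspo1, mmp13a and sox9b are filled at all 3 days, while calb2a, has2 and col10a1b are filled at 3 dpa alone, and for none of the genes did the difference between days pass.

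Vehicle fins at 5 and 1 dpa show how the same transcripts move during undisturbed regrowth. Their means share no array with the 3 dpa comparison, but the SE is the same. Probe sets called at 3 dpa for a small SE are thus called more easily here too, in either direction. The shares of all probe sets are therefore not an independent measure for these counts. Of the 113 probe sets lower with TCDD at 3 dpa, 54 were higher at 5 than at 1 dpa in vehicle fins (47.8%) and 17 lower (15%), where 7.22% of all probe sets were higher and 10.1% lower. Of the 59 higher with TCDD, 17 were higher at 5 dpa (28.8%) and 0 lower. The median change from 1 to 5 dpa in vehicle fins was 0.53 for the lower and 0.50 for the higher probe sets, against 0.03 over all. The count of 54 became 16, 28 or 25 without TCDD array A, B or C at 3 dpa and 17 or 15 without vehicle array A or C. The count of 17 became 6 or 8 without TCDD array A or C and 9, 11 or 11 without vehicle array A, B or C. The blocked fit gave 124 and 36.

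Among the 54 were matrix and bone genes. and2 had means of 3.73, 9.12 and 11.08 in TCDD fins at 1, 3 and 5 dpa, against 3.92, 11.95 and 13.12 in vehicle fins, where it was 9.20 ± 0.37 higher at 5 than at 1 dpa (adjusted p = 1.68e-09). ifitm5 had 4.32, 7.96 and 9.59 in TCDD fins, against 5.05, 11.11 and 11.65 in vehicle fins. loxa had 5.59, 5.77 and 7.22 in TCDD fins, against 6.0, 8.35 and 10.47 in vehicle fins, so that its TCDD level at 3 dpa was near that of either group at 1 dpa.

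Other genes ran another course. sox9b did not change in vehicle fins from 1 to 5 dpa past the threshold (-0.84, adjusted p = 0.343). tph1b had means of 8.62, 6.22 and 4.80 in TCDD fins, against 9.43, 8.94 and 5.07 in vehicle fins, where it fell by 4.36 ± 0.61 from day 1 to day 5 (adjusted p = 0.000232). has2 had 3.59, 3.67 and 3.46 in TCDD fins, against 4.39, 5.58 and 3.47 in vehicle fins, the single high point being vehicle fins at 3 dpa.

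**Figure D5:**
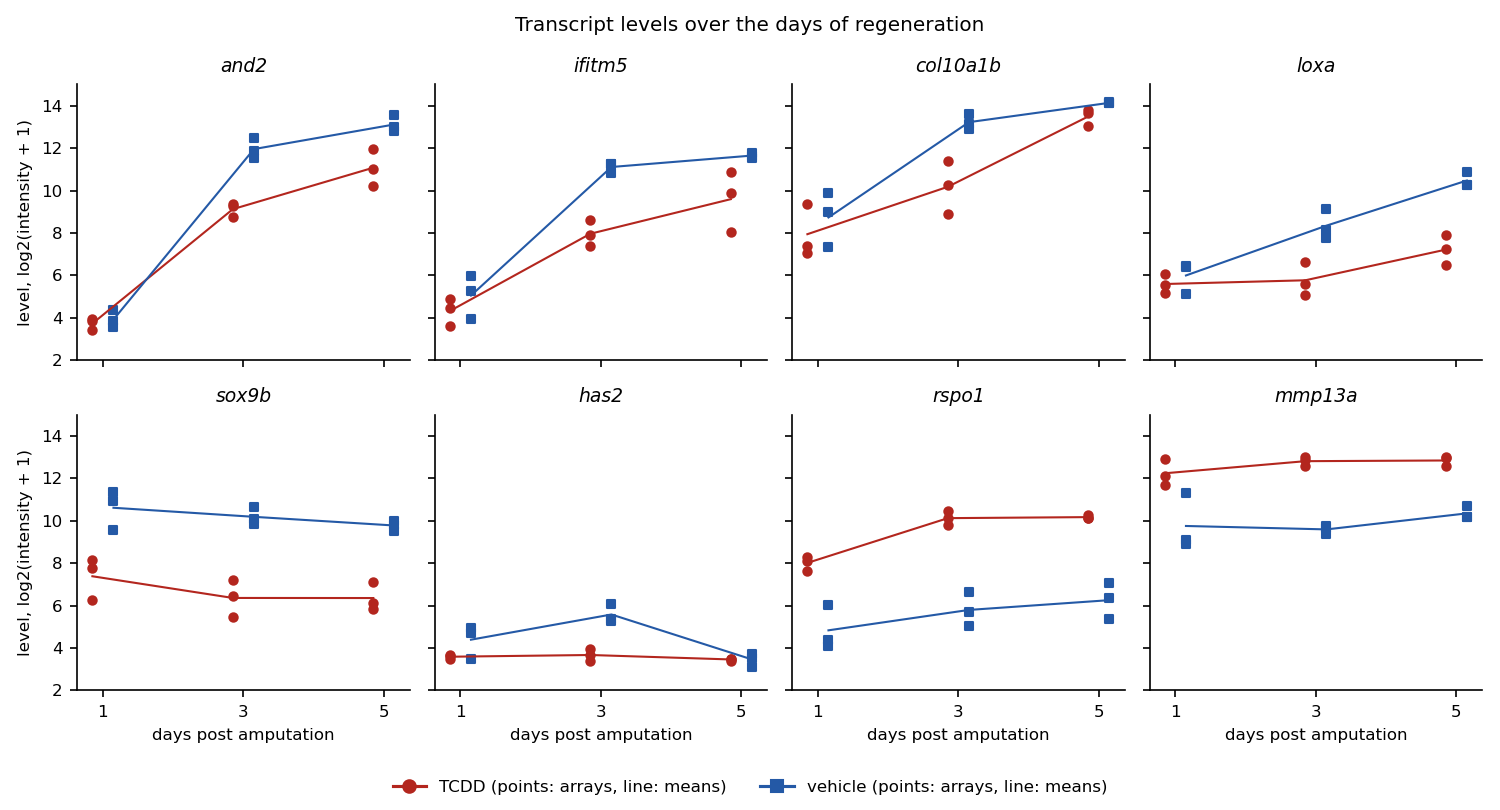
Level of 8 genes called at 3 dpa, log2(intensity + 1), on every array of TCDD fins (red circles) and vehicle fins (blue squares) at 1, 3 and 5 dpa, with lines through the group means. and2, ifitm5 and col10a1b climb in both groups and lie lower with TCDD at 3 dpa, while rspo1 and mmp13a lie higher with TCDD at all 3 days.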

How the data were processed

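RNA of pooled regenerating fin was hybridised to Affymetrix zebrafish arrays. The authors deposited linear intensity values, made by GCRMA according to the submitters' processing notes; the GCRMA version was not given in the sources used here. Background correction and normalization stand as deposited, and the size of a rise from a dim level rests on that background. Here log2(intensity + 1) was computed from the deposited intensities, which understates differences of dim genes. After removal of 115 control probe sets 15502 were tested. Of these, 10795 carried 1 symbol in the platform annotation (10711 of them brought up to date by Entrez ID), 135 several and 4572 none. A gene with several probe sets was counted by the brightest one, giving 8793 genes.

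limma 3.58.1 (R 4.3.3) was fitted to 6 group means over all 18 arrays with a trended prior, with two-sided tests and Benjamini-Hochberg adjustment over all probe sets, and was tested on simulated data. The simulated arrays had independent errors and no letter effect, so they cannot show how the fit behaves on arrays paired by letter. Tables and figures were made with Python 3.11.15 and matplotlib 3.10.9. The rule for naming genes took the 15 top rises and 15 top falls (difference of at least 1, no overlap, level of at least 5), called list members (up to 6 a list by adjusted p, with more given as values), all AHR genes, members of lists of up to 12 genes, the 5 most extreme day differences each way and genes at the threshold. Of the short lists, the day differences and the genes at the threshold, only some are given above. Members, lists and rules were chosen with earlier results of these data known, and genes given for context or passing in the blocked fit only were picked after their values were seen. Deviations from the group means correlated between same-letter arrays (r = 0.559, 0.570 and 0.700 over 7751 probe sets). Between different letters r was -0.454 to -0.0854, but deviations cancel out within each group, which by itself pushes these values down. The same-letter values point to a pairing at 3 dpa, which the main fit, with no letter term, leaves out. What the letters mean, and whether they mean the same at every day, is not stated in the labels. Alternatives were blocking by letter over all days or within 3 dpa, the 3 dpa arrays alone, a pseudocount of 16, quantile normalization, median centring, no dim probe sets, a constant prior, and leaving out each array or both of letter C.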

Additional observations from a re-analysis of the deposited data

Results flagged for a closer look

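A probe set with no gene symbol in the annotation used was the only 1 of 15502 whose TCDD effect differed between 3 and 5 dpa by the test of that difference: the effect at 3 dpa minus that at 5 dpa was 3.59 ± 0.44 (limma, adjusted p = 0.00983). At 3 dpa it had 3.92, 4.10 and 4.21 in TCDD fins, against 4.14, 4.67 and 4.25 in vehicle fins, and did not pass. At 5 dpa it had 5.73, 7.30 and 6.60 in TCDD fins, against 9.88, 10.70 and 10.65 in vehicle fins (-3.87, adjusted p = 3.78e-05).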

How the results depend on the processing

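Of 172 probe sets at 3 dpa, limma gave 489 with the letter as a replicate block over all days, 283 with the block within the day, 59 with the 3 dpa arrays alone, 36 without both arrays of letter C, and 72 to 158 with 1 array left out; pseudocount, normalization, filter and prior gave 158 to 182. The block over all days changed no named call, since all 172 passed with it too. The block within the day lost 19 of the 68 named calls (adjusted p 0.0507 to 0.13): apoc1, c1qc, col10a1b, gch2, gpx1b, hsd17b8, krt94, loxa, lrrc4.1, nfe2l2a, p3h4, runx2a, sox19b, sst1.1, sult6b1, tcf7l1b, ugdh, vcanb and yif1a. More of the 68 named calls were lost with the 3 dpa arrays alone (40) and without both arrays of letter C (52). Of 68 named called genes none reversed under the 15 settings. With each array left out 26 held, and 12 held under every setting in which they were tested: and2, calb2a, cyp1c1, cyp26b1, gja1b, lman1, the mpx probe set, nt5c2l1, p4ha1b, rspo1, snai2 and zdhhc2. The 1 probe set that differed between 3 and 5 dpa became 0 without dim probe sets and 0 to 3 with 1 array left out, and the 0 between 3 and 1 dpa became 1 with a pseudocount of 16 and 0 to 4 with 1 array left out. Of alternatives added after seeing the data, calls shared with 5 dpa were 185 with the block and 36 to 69 with 1 array left out (68), and those shared with 1 dpa 14 to 19 (23). Lower calls that climb in vehicle fins were 124 with the block and 15 to 67 with 1 array left out (54), higher ones 36 and 6 to 24 (17). With 3 pools a group, and levels under the array median close to background, small differences of dim genes cannot be judged.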

Other observations

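Of the 126 called genes, 80 stood in no list. A few of them, picked here after their values were seen, describe other processes. ccl27a, a chemokine gene, was among the brightest rises, with 13.41, 12.92 and 13.36 in TCDD fins, against 11.67, 11.55 and 11.21 in vehicle fins (1.75 ± 0.28, limma, adjusted p = 0.00597). nuak2, a kinase of the AMPK family, rose by 1.44 ± 0.20 (adjusted p = 0.00183), mapk14a, a p38 kinase gene, by 0.78 ± 0.11 (adjusted p = 0.00254) and sqor, the mitochondrial enzyme that oxidises sulfide, by 1.04 ± 0.15 (adjusted p = 0.00254). All 4 passed with each array left out (adjusted p at most 0.0379).

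Among the falls, hspb8, a small heat shock protein gene, had 4.43, 4.66 and 4.38 in TCDD fins, against 6.06, 5.74 and 6.35 in vehicle fins (-1.56 ± 0.21, adjusted p = 0.0016). sulf2b, a sulfatase that trims heparan sulfate outside the cell, had 9.51, 9.61 and 8.79 in TCDD fins, against 10.48, 10.53 and 10.35 in vehicle fins (-1.15 ± 0.19, adjusted p = 0.00874). dixdc1a, of the Wnt pathway, fell by 1.2 ± 0.16 (adjusted p = 0.0011). These 3 also passed with each array left out (adjusted p at most 0.0416).

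irg1l, which encodes an itaconate-forming enzyme, had the largest gap between 3 and 5 dpa among named genes without passing. Its levels at 3 dpa were 9.59, 9.86 and 12.52 on TCDD arrays A, B and C, against 3.99, 4.23 and 8.94 on vehicle arrays A, B and C. Letter C was high in both groups, and the differences within the letter pairs were 5.61, 5.63 and 3.59. The difference of 4.94 ± 1.91 had an adjusted p of 0.337, of 0.259 in the fit blocked by letter and of 0.0249 with the block within the day, while at 5 dpa it was -0.16.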
